A study of Mus musculus with 2 samples.

Results

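A set of 10 genes that mark antigen-presenting cells of the skin is described here in newborn mice that lack PNPLA1, a lipase-family enzyme of the upper epidermis needed for acylceramide synthesis. They are Cd207, Itgax, Cd74, H2-Aa, H2-Ab1, H2-Eb1, Cd86, Mrc1, Cd163 and Csf1r, taken as every probe of the array, other than controls, that carries 1 of these names. The rule finds 13 probes for 10 genes, out of 39429 probes for 30133 genes, with 3 probes for Csf1r, 2 for H2-Ab1 and 1 for each of the others. The study asked how the loss of Pnpla1 changes gene expression in skin with a defective permeability barrier. Total RNA of Pnpla1-/- newborns at postnatal day 0 (P0), carrying a global null allele on a C57BL/6N background, was compared with that of littermate Pnpla1+/+ newborns. RNA was pooled from 6 animals of each genotype, labelled with the dye Cy3 and hybridized to 1 Agilent oligonucleotide array per genotype. The null allele is present in all tissues of the Pnpla1-/- mice, and the RNA is that of skin with all its cell types. With 1 array per genotype no gene has a replicate and the genotypes could not be tested against each other, so that every difference describes these pools. More cells of a type and more RNA per cell, or fewer and less, cannot be told apart in such samples.

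Langerhans cells are the antigen-presenting cells of the epidermis, and dermal dendritic cells and macrophages lie beneath them. These cells take up proteins, cut them in endosomes and display the peptides on class II molecules of the major histocompatibility complex (MHC) to CD4+ T cells. A class II molecule is a pair of an alpha and a beta chain. The chains assemble with the invariant chain CD74, which blocks the peptide groove until proteases of the endosome remove it, and H2-DM then helps the peptide to load. In mice the precursors of Langerhans cells seed the epidermis before birth, and they acquire class II molecules and the lectin langerin, encoded by Cd207, only in the days around and after birth. Skin at P0 is therefore a tissue in which this population is still maturing.

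The intensities had their background subtracted by the scanner software and were scaled to each array's 75th percentile, which stood at 2108 for the Pnpla1+/+ and at 1734 for the Pnpla1-/- array. A difference is the log2 scaled signal in Pnpla1-/- skin minus that in Pnpla1+/+ skin, so that a difference of 1 is 2-fold. Where a pair of intensities is given, Pnpla1+/+ comes first. The error given with a probe is the standard error of the scanner software's error model, which covers 1 spot on each array and not the spread between mice. In 309 probes spotted repeatedly, differences had a median technical SD of 0.081, which was 0.18 for probes with a Pnpla1+/+ intensity under 200. Keratin and collagen genes, which define epidermis and dermis, were bright on both arrays, with intensities of 277989 and 262540 for Krt10 and of 275482 and 201776 for Col1a2. Pnpla1 itself, the targeted gene, gave intensities of 579 and 114, a difference of -2.07 (4.19-fold lower).

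Among the 10 members, 7 were at least 2-fold higher in Pnpla1-/- skin and none was 2-fold lower. Of 22374 genes with a difference or a bound, 6.70% were 2-fold higher or more and 3.04% were 2-fold lower or more, 9.74% in either direction. The 9 members with a difference had a median of 2.42, against 0.00 over all genes. Of these, Itgax and the class II genes H2-Aa, H2-Ab1, H2-Eb1 and Cd74, made up 5 and lay between 2.42 and 2.82 at their brightest probe. This is more than 4-fold higher, a size that 1.85% of all genes reached. With spike-in centring H2-Aa (1.99) and H2-Ab1 (1.995) fell just under 4-fold, as did H2-Aa with normexp background correction (1.94). Cd86 and Cd163 were little over 2-fold higher, and Mrc1 and Csf1r lay under 2-fold. Cd207 did not rise well above background on the arrays and has no fold.

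**Figure D1:**
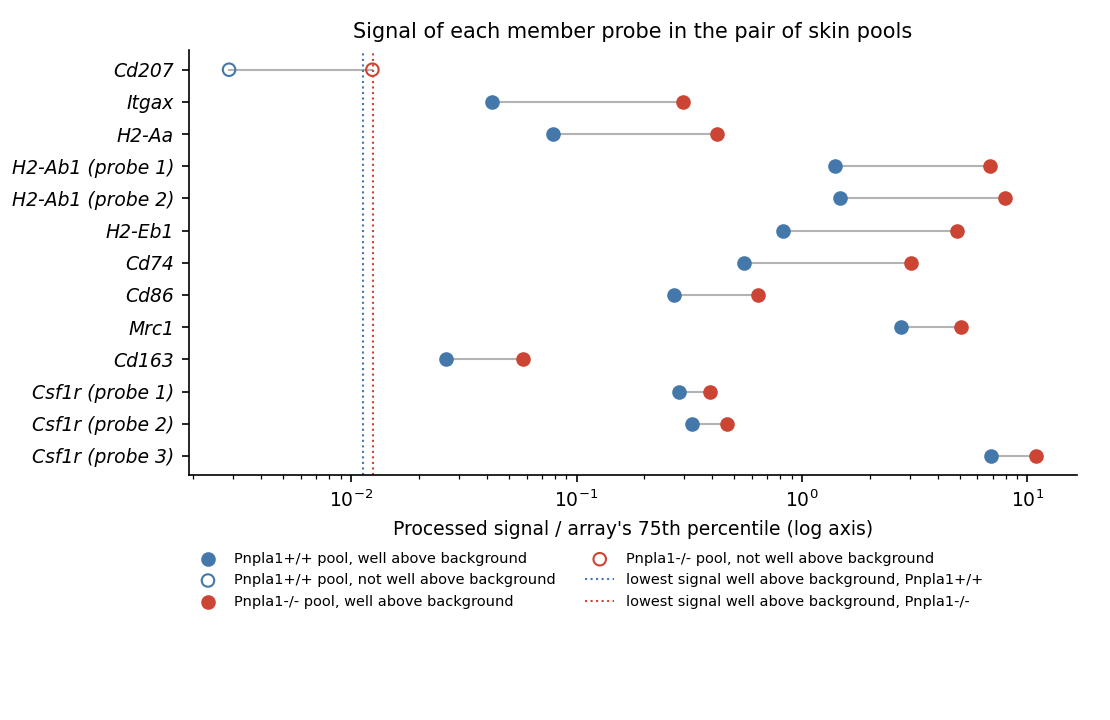
Signal of each member probe divided by the 75th percentile of its array (log axis), blue for the Pnpla1+/+ and red for the Pnpla1-/- pool, with open circles where the probe was not well above background. The red point lies to the right of the blue one at all 12 probes that were well above background on both arrays, and the distance is longest for Itgax and the class II genes and shortest for Csf1r.

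The class II chains come first. H2-Aa, the alpha chain of the I-A molecule, gave intensities of 166 in the Pnpla1+/+ pool and 728 in the Pnpla1-/- pool, a difference of 2.42 with an error-model SE of 0.21 (5.34-fold). H2-Ab1, the beta chain that pairs with it, gave 3104 and 13720 at its brighter probe, a difference of 2.43 (SE 0.20). Its other probe gave 2967 and 11822, a difference of 2.28. The beta chain of the I-E molecule, H2-Eb1, gave 1741 and 8433, a difference of 2.56 (SE 0.20, 5.89-fold). For all 3 chains the Pnpla1-/- value was several times the Pnpla1+/+ value, and at their brightest probes their differences lay within 1 error-model SE of one another.

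The H2-Aa probe and the H2-Ab1 probes are shown because they read the chains at different places of their transcripts, and because the H2-Ab1 probes are almost the same sequence. The H2-Aa probe starts at base 227 of the transcript and lies at mm9 chr17:34421285-34421344 on the minus strand. The H2-Ab1 probes start at bases 1125 and 1134 of 1 transcript and share 51 bases, with 1 difference, T42C, counted from the first base they share. The stretches around it, at mm9 chr17:34406328-34406355 on the plus strand, are given with the differing base in capitals. These probes therefore repeat nearly the same measurement, and they differed by less than 1 error-model SE.
H2-Aa probe: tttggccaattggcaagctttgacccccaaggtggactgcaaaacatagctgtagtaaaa
H2-Ab1 probe 1, stretch: attacaaataaacgagacTcagactctg
H2-Ab1 probe 2, stretch: attacaaataaacgagacCcagactctg

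Cd74, the invariant chain that escorts class II molecules through the cell, gave 1167 and 5284, a difference of 2.46 (SE 0.20, 5.51-fold). H2-Ea, the alpha chain that would pair with H2-Eb1, was near background on both arrays, with intensities of 6.55 and 5.79. C57BL/6 mice carry a defective H2-Ea gene, so that an I-E molecule does not reach the surface in this strain. The H2-Eb1 difference thus stands without signal for its partner chain.

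Itgax encodes CD11c, the integrin alpha chain used as a marker of dendritic cells and of some macrophages. It gave intensities of 89.3 and 517. The difference of 2.82 (SE 0.22, 7.04-fold) was the largest of the 9. With normexp background correction it was 2.18, below that of H2-Eb1 (2.52). The Pnpla1+/+ value is a dim one, within the range where the technical SD of repeated spots was 0.18.

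Cd86, a co-stimulatory ligand that T cells need beside the peptide, gave 571 and 1101, a difference of 1.23 (SE 0.20, 2.34-fold). Cd163, a scavenger receptor for haemoglobin on tissue macrophages, gave 55.4 and 99.98, a difference of 1.13 (SE 0.25, 2.20-fold). Cd86 lay little more than 1 error-model SE above the 2-fold line and Cd163 less than 1, and both fell under it when the arrays were not scaled (0.95 and 0.85) or were centred on the spike-in probes (0.80 and 0.70). Cd163 also lay under it with quantile normalization (0.997) and with normexp background correction (0.73). Mrc1, the mannose receptor of macrophages, which lymphatic endothelium also carries, gave 5812 and 8767, a difference of 0.88 (SE 0.20, 1.83-fold).

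Csf1r is the receptor for CSF1 and IL-34 on which Langerhans cells and most macrophages depend. Its brightest probe, which starts at base 3806 of the transcript, gave 14484 and 18988, a difference of 0.67 (SE 0.20). The other probes start at bases 1841 and 2871. They gave 602 and 677, a difference of 0.45, and 684 and 809, a difference of 0.52. All 3 probes read the Pnpla1-/- pool slightly higher, with differences within about 1 error-model SE of one another, and with spike-in centring they were 0.24 at the brightest probe, 0.02 at the probe from base 1841 and 0.09 at the one from base 2871.

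**Figure D2:**
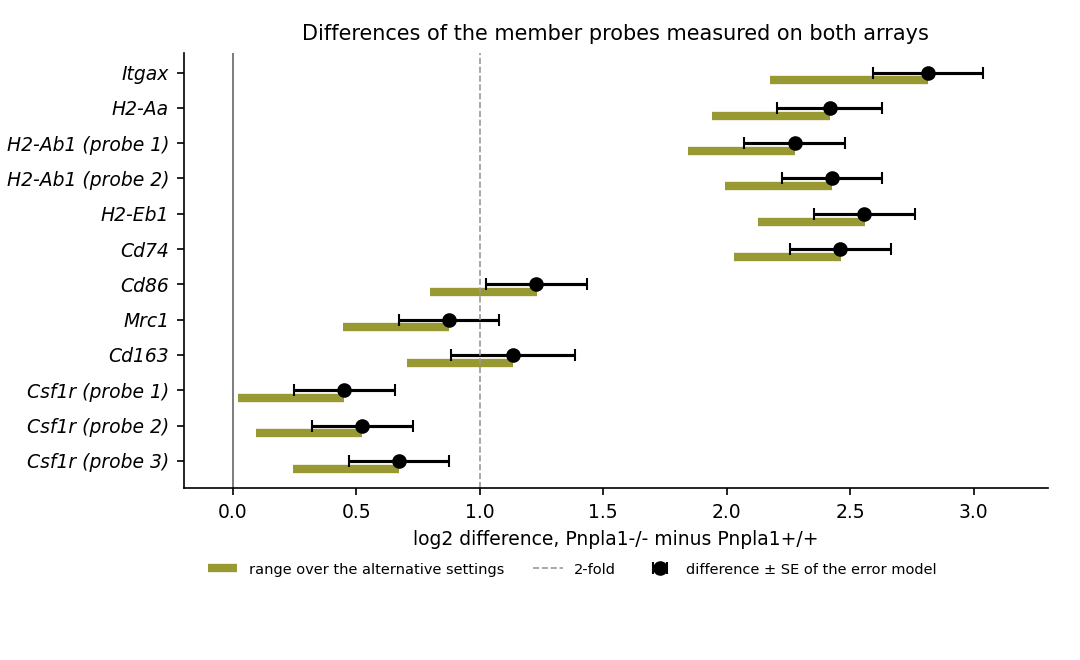
Log2 difference, Pnpla1-/- minus Pnpla1+/+, of the 12 member probes well above background on both arrays, with bars for the error-model SE and olive bands for the range over the alternative settings. Itgax, H2-Aa, H2-Ab1, H2-Eb1 and Cd74 lie beyond 2-fold across their whole band, the lowest value being 1.85 at the dimmer H2-Ab1 probe, while the bands of Cd86 and Cd163 cross the dashed 2-fold line.

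Cd207, the gene that defines Langerhans cells, gave intensities of 6.06 and 21.6 at its only probe. The lowest intensity counted as well above background was 23.9 in the Pnpla1+/+ pool and 21.7 in the Pnpla1-/- pool. The Pnpla1-/- value was just below this limit and the Pnpla1+/+ value well below it, so both are upper bounds and their order is not measured. The label Langerhans cell therefore rests here on no detected langerin transcript, and the members with signal are also genes of dendritic cells or macrophages.

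Among other genes of Langerhans cell identity and development, the 8 measured on both arrays differed by less than 2-fold between the pools. Of 11 listed, 9 had a difference or a bound, the median was -0.08 (-0.51 with spike-in centring, where that of all genes was -0.43), and none had a value past 2-fold. Ccr6, a chemokine receptor of Langerhans cell precursors, was well above background in Pnpla1-/- skin alone (17.7 and 34.8) and at least 0.82 higher, a lower bound that does not place it under 2-fold. Epcam, an adhesion molecule of Langerhans cells that keratinocytes also express, gave 1122 and 876 (difference -0.08). Cd24a, the brightest of the list and also a keratinocyte gene, gave 23446 and 23006 (0.25, or -0.18 with spike-in centring). Ly75 and Itgae were near background on both arrays. The list's scaled signal summed to 28.6 in Pnpla1+/+ and 27.7 in Pnpla1-/- skin, a ratio of 0.967, or 0.824 without Cd24a. Its brightest genes were Cd24a and Tgfbr2 (18300 and 11973). In RNA of skin with all its cell types, such signal need not come from Langerhans cells. The median and sums of this list therefore do not describe Langerhans cells in particular.

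**Figure D3:**
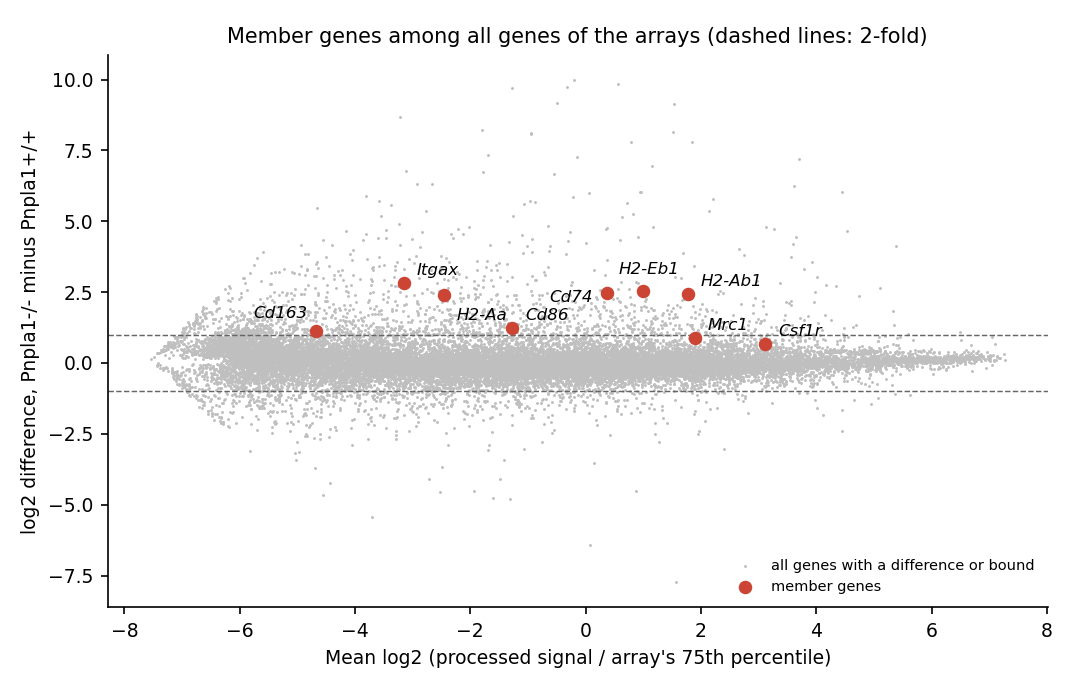
Log2 difference, Pnpla1-/- minus Pnpla1+/+, against the mean log2 scaled signal, in grey for all 22374 genes with a difference or a bound and in red for the 9 members. Itgax and the class II genes stand above the grey band at low and at high signal, with 98.9% to 99.2% of probes having a smaller difference, while Mrc1 and Csf1r lie under the dashed line at 2-fold.

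The machinery that serves the class II chains was measured next. Of 15 listed genes other than the members, 12 had a difference or a bound, 5 were at least 2-fold higher, none was 2-fold lower, and the median was 0.45. H2-DMb1 and H2-DMa, the chains of the peptide loader, gave 389 and 1668 (2.38) and 225 and 535 (1.53). Ctss, cathepsin S, the protease that removes the last part of the invariant chain, gave 4153 and 14546 (2.09). H2-Oa, a chain of the inhibitor of H2-DM, gave a dim 33.7 and 97.5 (1.81, or 1.01 with normexp). Its partner H2-Ob gave 79.8 and 78.7 (0.26, or -0.17 with spike-in centring). Loader, inhibitor chain and protease were thus higher in Pnpla1-/- skin in a range of sizes, with H2-DMb1 and Ctss nearest to the class II chains.

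Ciita, the co-activator that class II transcription requires, gave a dim 42.3 and 77.5, a difference of 1.16. It fell under 2-fold without scaling (0.87), with quantile normalization (0.98), with spike-in centring (0.72) and with normexp (0.68), which left 4 pathway genes at least 2-fold higher. Of the subunits of RFX, the DNA-binding complex that CIITA joins, Rfxank gave 786 and 599 (-0.11), Rfxap gave 420 and 267 (-0.37), and the brighter Rfx5 probe did not pass background on either. The other Rfx5 probe passed it in Pnpla1-/- skin alone (23.4 and 27.5) and was at least 0.48 higher. Lgmn, a protease of the endosome and the brightest gene of the list, gave 14058 and 17963 (0.64). Marchf1, a ligase that removes class II molecules from the surface, gave opposite readings, 5116 and 3201 (-0.39) at its brighter probe and 111 and 468 (2.36) at the dimmer one.

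Class II genes carry a known arrangement of promoter elements, an X box bound by RFX and, downstream of it, a Y box bound by NF-Y, whose core is CCAAT or, on the other strand, ATTGG. Promoters from 250 bases before to 50 after the annotated start were searched on both strands for CCAAT and for AACNGATG, a stretch of the X box whose letters were chosen after the promoters were read. The table of RefSeq promoters, on GRCm38.p6, held 6 of the 10 members and 12 of the 15 other class II pathway genes. Of 32851 promoters in all, 37.4% held CCAAT and 2.32% held the X box letters. Such shares are of promoters, whereas the members and pathway genes are counted as genes with a match at any of their promoters. H2-DMa, Lgmn and Marchf1 had more than 1 promoter, which raises the chance of a match. CCAAT was present in 5 of the 6 members and in 10 of the 12 pathway genes, and the X box letters in 1 member, H2-Eb1, and in 4 pathway genes, H2-DMb1, H2-DMb2, H2-Eb2 and Ctss. GAGGAA, the core bound by the myeloid factor PU.1, was searched in the same way and was present in 2 of the 6 members, Cd207 and Mrc1, and in 4 of the 12 pathway genes, against 28.3% of all promoters. CTGATTGG, a longer form of the Y box that overlaps ATTGG, was also chosen after the promoters were read and was present in 2 members and 2 pathway genes, against 4.10% of all promoters. An X box followed by ATTGG on the same strand, with 25 to 35 bases between their first bases, was found in 6 of the 32851 promoters, 0.0183%, also a pattern chosen after the promoters were read. These were the 4 class II genes H2-Eb1, H2-DMb1, H2-DMb2 and H2-Eb2, with spacings of 30 or 31 bases, and BC051142 and Gm35697, which are not in the lists.

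The windows from 140 to 21 bases before the start are shown to set genes with a measured large difference beside genes too dim for one. Capitals mark the X box letters and CCAAT or ATTGG. H2-Eb1 (difference 2.56) lies at chr17:34305727-34305846, H2-DMb1 (2.38) at chr17:34153051-34153170, H2-DMb2 at chr17:34145109-34145228 and H2-Eb2 at chr17:34325535-34325654, all on the plus strand, and H2-Aa (2.42) at chr17:34287844-34287963 on the minus strand. H2-DMb2, the neighbouring copy of H2-DMb1, and H2-Eb2, another I-E beta chain gene, have the same arrangement. H2-DMb2 gave intensities of 10.5 and 19.0, near background on both arrays, and H2-Eb2 gave 30.5 and 30.3, well above background in Pnpla1-/- skin alone. H2-Aa has the ATTGG and no match to these X box letters. The letters were chosen after the promoters were read, so a missing match does not mean that H2-Aa lacks an X box. A match is a description of letters and not of a bound site.
H2-Eb1: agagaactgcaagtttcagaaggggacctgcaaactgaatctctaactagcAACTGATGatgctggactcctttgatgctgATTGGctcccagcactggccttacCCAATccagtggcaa
H2-DMb1: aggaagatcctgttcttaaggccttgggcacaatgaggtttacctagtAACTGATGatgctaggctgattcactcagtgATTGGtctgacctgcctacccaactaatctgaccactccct
H2-DMb2: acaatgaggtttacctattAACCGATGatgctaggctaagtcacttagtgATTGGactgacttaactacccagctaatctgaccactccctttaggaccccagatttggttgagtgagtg
H2-Eb2: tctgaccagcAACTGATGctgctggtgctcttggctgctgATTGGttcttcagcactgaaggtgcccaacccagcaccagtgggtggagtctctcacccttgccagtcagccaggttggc
H2-Aa: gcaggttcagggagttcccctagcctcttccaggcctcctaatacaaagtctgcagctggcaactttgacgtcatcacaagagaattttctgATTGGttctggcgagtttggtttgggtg

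**Figure D4:**
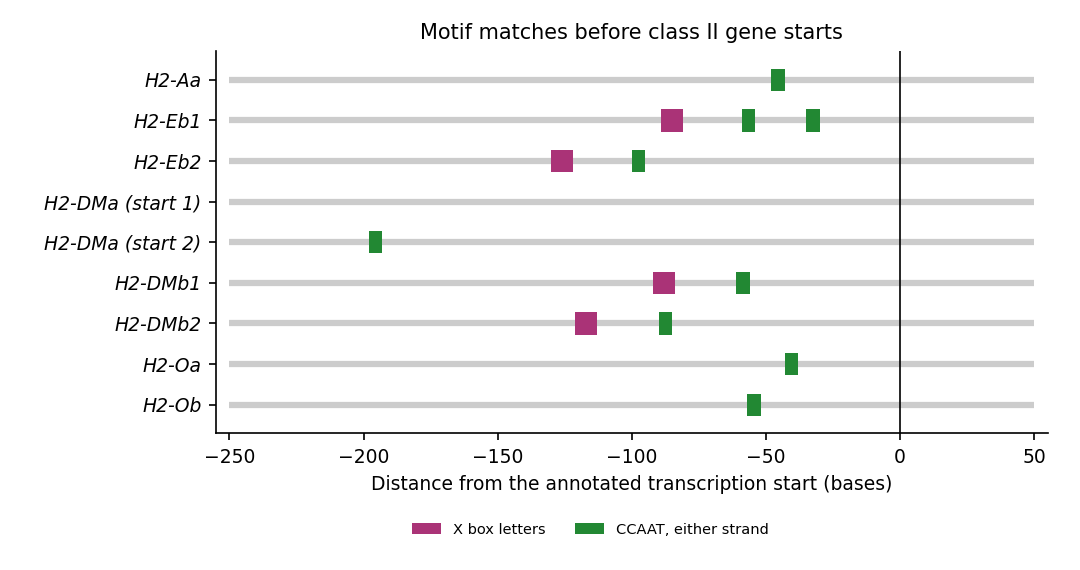
Matches to the X box letters (purple) and to CCAAT on either strand (green) in RefSeq promoters of class II genes, by distance in bases from the annotated start, with H2-DMa drawn at both of its starts. In H2-Eb1, H2-DMb1, H2-DMb2 and H2-Eb2 the X box letters begin 89, 92, 121 and 130 bases before the start and the next ATTGG 59, 61, 90 and 100 bases before it.

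Genes of co-stimulation and maturation other than Cd86 ranged from -0.33 to 3.40. Of 13 listed, 10 had a difference or a bound, with a median of 0.89, 5 at least 2-fold higher and none 2-fold lower. Cd274, which encodes the inhibitory ligand PD-L1, gave 197 and 1707 (3.40). Il12b, a subunit of IL-12 and IL-23, was not well above background in Pnpla1+/+ skin (7.84) and gave 178 in Pnpla1-/- skin. It was at least 3.18 higher on the log2 scale, or 1.68 with normexp. Ccr7, the receptor that guides dendritic cells to lymph nodes, gave 44.8 and 127 (1.79, or 1.01 with normexp). Relb, a transcription factor of dendritic cells and the brightest of the list, gave 1692 and 2915 (1.07), and Cd40 gave 168 and 277 (1.01). The dimmer Relb probes gave 926 and 1657 (1.12) and 206 and 202 (0.26). Relb and Cd40 fell under 2-fold with spike-in centring (0.64 and 0.58), without scaling and with median scaling, which left 3 genes at least 2-fold higher. The other ligand of CD28, Cd80, gave 1152 and 1306 (0.46) at its brighter probe, while its other probe was well above background in Pnpla1-/- skin alone (28.3 and 66.6), at least 1.52 higher. Cd274 and Il12b are also made by other cells than dendritic cells.

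The ligands of CSF1R lay under 2-fold, whereas GM-CSF and a chain of its receptor lay above it. Il34, the keratinocyte ligand on which Langerhans cells depend, gave 3089 and 3538 (0.48), and Csf1 gave 2607 and 2812 (0.39, or -0.04 with spike-in centring). Csf2, which encodes GM-CSF, was not well above background in Pnpla1+/+ skin (6.50) and gave 216 in Pnpla1-/- skin. It was at least 3.45 higher, or 1.90 with normexp. Csf3, the granulocyte factor, went from 5.79, not well above background, to 123, at least 2.64 higher (1.35 with normexp). Csf2rb, the shared beta chain of the receptors for GM-CSF, IL-3 and IL-5, gave 2939 and 7854 (1.70), and Csf2ra, the brightest of the list, gave 5539 and 7047 (0.63). All 8 genes of the list had a value above 0, with a median of 0.78 and 3 at least 2-fold higher.

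Markers of dendritic cells with a difference lay above 0 in 9 of 10 cases (6 with spike-in centring). Of 12 listed, 10 had a difference, with a median of 0.52, of which 2 were 2-fold higher or more and 1 was 2-fold lower or more. Irf8, a transcription factor of dendritic cells and monocytes, gave 761 and 1970 (1.65), and Wdfy4, needed for cross-presentation, gave 766 and 1318 (1.07, or 0.64 with spike-in centring). Cd209a, a lectin of dermal dendritic cells, gave 119 and 37.1 (-1.40) at its brighter probe, the opposite direction to Itgax, and at its other probe was well above background in Pnpla1+/+ skin alone, at a bound of -0.27. It was -0.57 with normexp and -0.83 with the mean of its probes, both under 2-fold. Xcr1 and Clec9a, which define conventional type 1 dendritic cells, were near background on both arrays. Siglech, a plasmacytoid cell marker, was the brightest of the list at 80523 and 82603 (0.32, or -0.11 with spike-in centring), but its other 2 probes read between 38.2 and 50.9 on both arrays. The list's scaled signal summed to 63.1 and 80.9, a ratio of 1.28, most of it from that 1 probe of Siglech and from Mgl2.

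Of the macrophage markers, 17 of 18 had a difference above 0 (16 with spike-in centring). All 18 had a difference, with a median of 0.88, of which 7 were 2-fold higher or more and 1 was 2-fold lower or more, and their scaled signal summed to 24.6 and 44.5 (ratio 1.81). The count higher was 3 without scaling and 2 with spike-in centring. Adgre1, which encodes F4/80, gave 1806 and 3514 (1.24). Cd68, a lysosomal protein of macrophages, gave 3338 and 4916 (0.84), and Fcer1g, the brightest of the list, gave 8490 and 13990 (1.0). Ccr2, the chemokine receptor of inflammatory monocytes, gave 52.5 and 417 (3.27, or 2.18 with normexp). Lyz2, lysozyme of macrophages and neutrophils, gave 361 and 1512 (2.35), Fcgr1 gave 274 and 603 (1.42), and Aif1 gave 3438 and 6603 (1.22). With spike-in centring Adgre1 (0.81), Fcer1g (0.57), Fcgr1 (0.99) and Aif1 (0.79) fell under 2-fold. Cx3cr1, a chemokine receptor of resident mononuclear phagocytes, went the other way at all 3 of its probes, with 973 and 202 (-1.98) at the brightest and a lowest difference of -2.16.

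Genes of resident tissue macrophages, the group to which Mrc1 and Cd163 belong, had a median of 1.06 over 11 genes, with 6 at least 2-fold higher and none 2-fold lower. The count higher was 3 with normexp, 2 without scaling and 1, Siglec1, with spike-in centring, where Cd209f was 2-fold lower (-1.01). Siglec1, a sialic acid receptor, gave 116 and 400 (2.06) at its brighter probe and at least 0.42 at the other. Clec10a gave 3383 and 7192 (1.37), F13a1 gave 13400 and 26318 (1.26), Timd4 gave 30.3 and 57.8 (1.21), and Marco gave 164 and 292 (1.12). Pf4, the brightest of the list and mainly a platelet gene, gave 40431 and 30441 (-0.13). The list's scaled signal summed to 35.9 and 51.7, a ratio of 1.44, or 2.04 without Pf4.

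Genes of all leukocytes were also higher in Pnpla1-/- skin, with a median of 1.25 over 12 genes, 9 of them at least 2-fold higher, and a scaled signal that summed to 8.04 and 21.2 (ratio 2.64). The count was 4 without scaling and 4 with spike-in centring. Under that centring Lcp1 was 0.85 higher and Coro1a 0.81. Ptprc, which encodes CD45, gave 232 and 542 (1.51), Cd52 gave 2792 and 9576 (2.06), Itgb2, the beta chain that pairs with CD11c, gave 202 and 579 (1.80), Vav1 gave 1037 and 2376 (1.48), Lcp1 gave 2257 and 4503 (1.28), and Coro1a, the brightest of the list, gave 6028 and 11690 (1.24). Itgax, Cd74, H2-Aa, H2-Ab1 and H2-Eb1 had differences larger than those of all 12 markers when each gene was read at its brightest probe, by 1.17 to 1.57 over the median of the list. The dimmer probe of Dock2, a marker on this list, was well above background in Pnpla1-/- skin alone (22.7 and 128) and at least 2.70 higher, which is more than the class II members. At the brightest probes Cd86 exceeded 5 of the 12, Cd163 exceeded 4, Mrc1 exceeded 2 and Csf1r exceeded none. How much of any member's difference goes with a larger share of leukocytes in the RNA was not tested.

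Marker lists of other cell types differed between the pools as well. Of 10 neutrophil genes, 5 were at least 2-fold higher, namely Cxcr2, which was not well above background in Pnpla1+/+ skin (15.98 and 1177, at least 5.90), Mmp8 (59.5 and 1210, 4.63), Mpo (32.3 and 541, 4.35), Ngp (50.5 and 426, 3.36) and Ltf (116 and 957, 3.33), and the list's median was 1.87, or 0.42 over the 9 genes well above background on both arrays. With normexp these 5 genes were at 4.31 (Cxcr2), 3.69 (Mmp8), 2.98 (Mpo), 2.24 (Ngp) and 2.77 (Ltf). Csf3r, the brightest of the list, gave 89901 and 76226 (0.04, or -0.39 with spike-in centring). It made up most of the list's summed scaled signal, which was 50.5 and 54.3 (ratio 1.08). Without Csf3r the sums were 7.84 and 10.4 (ratio 1.32). Itgam, which encodes CD11b of neutrophils and macrophages, gave 11846 and 9569 (-0.03) at its brightest probe, 119 and 701 (2.84) at another and 46.2 and 83.4 (1.14) at the third, and the mean of its probes was 1.32 higher. The B cell genes had a median of 0.87 over 4 with a value, with Cd79b (241 and 505, 1.35), the brightest, and Pax5 (at least 1.17) 2-fold higher, and a ratio of sums of 2.11. Neither passed 2-fold with spike-in centring, where Cd79b was 0.917, and the lowest value of Pax5 was 0.553, with normexp. B cells also express class II molecules, and Ms4a1, which encodes CD20, was near background on both arrays.

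The mast cell and T cell lists had medians below 0. The mast cell list had a median of -0.47 over 8 genes and a ratio of sums of 0.776, with Cpa3, the brightest, at 56546 and 32445 (-0.52), and Fcer1a, a receptor chain that dendritic cells can also carry, at 118 and 258 (1.41, or 0.975 with spike-in centring). The T cell list was split, with 5 of 9 genes below 0 and 4 above it and a median of -0.40 (-0.039 with normexp). With spike-in centring 8 lay below 0 and 1 above it, and without scaling 7 lay below and 2 above. Cd5 gave 1004 and 322 (-1.36), whereas Cd4 gave 1857 and 2020 (0.40, or -0.12 with the mean of its probes) and Cd3e, a chain of the T cell receptor complex, gave 730 and 656 (0.13, or -0.30 with spike-in centring). Thy1, the brightest and also a fibroblast gene, gave 23062 and 13752 (-0.46), and it made up most of the list's summed signal, whose ratio was 0.779 with it and 1.03 without it. Among cells of the skin frame, the median was 0.14 for lymphatic endothelium (4 of 7 listed genes with a value, Pdpn brightest at 0.27, Prox1 near background on both arrays, ratio 1.12), 0.35 for blood endothelium (Kdr brightest at 0.31, ratio 1.28), -0.07 for fibroblasts (Col1a2 brightest at -0.17, ratio 0.947) and 0.21 for keratinocytes (Krt10 brightest at 0.20, ratio 1.23). With spike-in centring the medians of lymphatic endothelium, blood endothelium and keratinocytes turned to -0.29, -0.082 and -0.22. In these lists no gene was 2-fold higher or lower except Krt14 of basal keratinocytes (53789 and 112502, 1.35, or 0.915 with spike-in centring). The part of these lists in the members' differences was not tested.

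**Figure D5:**
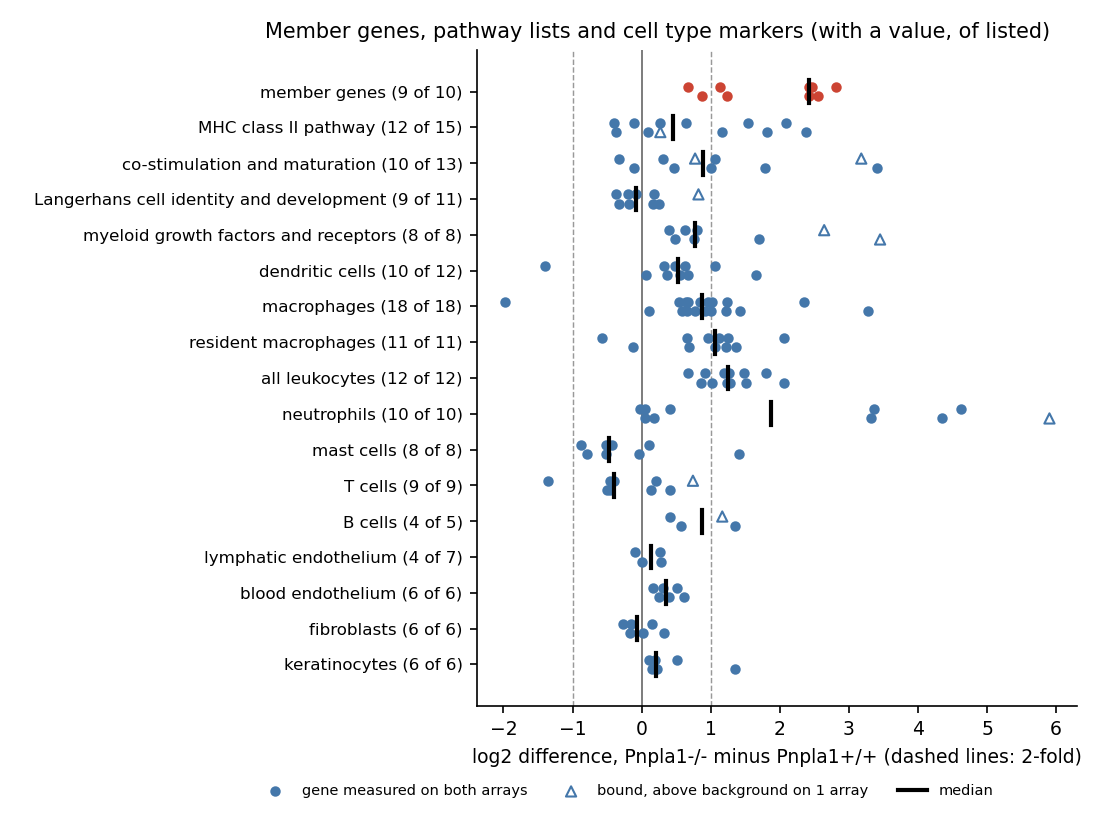
Log2 differences, Pnpla1-/- minus Pnpla1+/+, of the members and of each gene list, with a filled point per gene measured on both arrays, an open triangle per bound and a black bar at the median. The median of the members is 2.42, that of all leukocyte genes 1.25, that of macrophage genes 0.88 and that of Langerhans cell identity genes -0.08. The last of these lists has no value for Ly75 and Itgae, which were near background.

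The pools also differed in genes of the sex chromosomes. Xist, expressed from the inactive X chromosome of females, was 1.12 higher in the Pnpla1-/- pool, and the Y-linked genes Ddx3y and Eif2s3y were both lower there, by -2.19. The pools thus differed in sex-linked transcripts, and the part of sex in the members' differences was not tested.

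Scaling by 1 factor per array shifts all differences alike, which quantile normalization and normexp do not. With normexp Itgax went from 2.82 to 2.18 and Cd74 from 2.46 to 2.41. The 8 E1A spike-in probes read 0.43 higher in Pnpla1-/- skin after scaling (range 0.30 to 0.52), so that centring on them lowers the differences by that amount. Under this centring the 5 largest members lay between 1.99 and 2.38 and the median of all genes at -0.43. The count of genes at least 2-fold higher then was 5 among the members, 4 of 12 among leukocyte genes, 2 of 18 among macrophage genes and 1 of 11 among resident macrophage genes, against 3.73% of all genes, of which 9.82% were 2-fold lower or more. The share of all genes 2-fold higher or more was 4.47% without scaling, 6.01% with median scaling, 5.70% with quantile normalization and 4.34% with normexp. Of the genes at least 2-fold different, 68.8% were higher with the 75th percentile, 58.8% with quantile normalization, 41.2% without scaling and 27.5% with spike-in centring.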

How the data were processed

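Skin RNA pooled from 6 newborn mice per genotype was measured on 1 array each, and the arrays were grouped by their labels. Array images were quantified by the authors in Feature Extraction 11.5.1.1 per the labels. The deposited scanner files give the background-subtracted linear intensity of every spot, with its error and flags. The methods name a global normalization without its statistic. The authors also deposited a value table, a linear ratio of this intensity to 1 factor per array (2109 and 1734), next to the 75th percentile.

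Intensities of the 43020 spots other than controls were divided by the array's 75th percentile and taken to log2 (Python 3.11.15, numpy 2.4.6, pandas 2.3.3). Of these spots, 71.7% were well above background in Pnpla1+/+ and 73.3% in Pnpla1-/- skin, and none was saturated. Spots flagged as outliers (138 and 82) were left out, repeated spots were averaged, and a gene was represented by its brightest probe. A probe well above background on 1 array gives a bound, "at least", computed against the dim probe's signal or, where higher, the lowest one that counted as well above background. "Near background" means not well above it. A gene was called at 2-fold. No test, p-value or SD between mice exists with 1 array per genotype, and this number of arrays limits the precision. The computation was run on simulated data, in which 200 of 200 changed genes were recovered. These changes were set well beyond 2-fold and in bright genes only. The simulation therefore checks the arithmetic and does not cover dim probes, bounds or differences near 2-fold.

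Of 39429 probes, names came from RefSeq (GRCm38.p6) for 27508 through an accession, for 3544 through the symbol and for 404 through a former symbol, and 7973 kept the name in the files. Probe coordinates are those of the files, on mm9. The members and gene lists were chosen with earlier results of these data known. Named are all members, in each list the genes at least 2-fold different (at most 5 in each direction) and the brightest, and Pnpla1, H2-Ea, Ptprc, Epcam, Adgre1, Cd68, Ciita, Il34 and Csf1. Other genes were named after their values were seen. Alternatives were no scaling, the median, quantile normalization and normexp with an offset of 50 (limma 3.58.1, R 4.3.3), spike-in centring, the value table, other filters and probe summaries, thresholds of 1.5-fold and 3-fold, and, added after seeing the data, outlier-flagged spots kept.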

Additional observations from a re-analysis of the deposited data

How the results depend on the processing

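With 1 array per genotype, the alternatives change the computation and not the mice, and no result has a replicate check. The 9 members with a value stayed above 0 in all alternatives run, and Itgax, H2-Aa, H2-Ab1, H2-Eb1 and Cd74 stayed at least 2-fold higher, whereas Cd86 and Cd163 fell under 2-fold without scaling and with spike-in centring, and Cd163 also with normexp (0.73) and quantile normalization (0.997). The medians under median scaling, the authors' value table and outlier-flagged spots kept moved by less than the technical SD. With spike-in centring, medians were 0.44 for B cells, -0.51 for Langerhans identity, 0.20 for class II pathway, -0.83 for T cells, 0.82 for leukocytes, -0.082 for blood endothelium, 0.46 for co-stimulation, 0.091 for dendritic cells, -0.50 for fibroblasts, -0.22 for keratinocytes, -0.29 for lymphatic endothelium, 0.45 for macrophages, -0.91 for mast cells, 1.99 for members, 0.35 for growth factors, 1.44 for neutrophils and 0.63 for resident macrophages, and genes past the threshold numbered 827 higher of all genes, 2178 lower of all genes, 5 higher of the other cell type lists, 3 lower of the other cell type lists and 18 higher of the pathway, dendritic, macrophage and leukocyte lists. With no scaling, medians were 0.58 for B cells, -0.36 for Langerhans identity, 0.35 for class II pathway, -0.68 for T cells, 0.97 for leukocytes, 0.067 for blood endothelium, 0.61 for co-stimulation, 0.24 for dendritic cells, -0.35 for fibroblasts, -0.074 for keratinocytes, -0.14 for lymphatic endothelium, 0.60 for macrophages, -0.76 for mast cells, 2.13 for members, 0.50 for growth factors, 1.59 for neutrophils and 0.78 for resident macrophages, and genes past the threshold numbered 998 higher of all genes, 1424 lower of all genes, 3 lower of the other cell type lists and 20 higher of the pathway, dendritic, macrophage and leukocyte lists. With normexp, medians were 0.51 for B cells, 0.29 for class II pathway, -0.039 for T cells, 0.64 for co-stimulation, -0.34 for mast cells, 1.94 for members, 0.67 for growth factors, 1.32 for neutrophils and 0.87 for resident macrophages, and genes past the threshold numbered 960 higher of all genes, 321 lower of all genes and 1 lower of the pathway, dendritic, macrophage and leukocyte lists. With quantile normalization, medians were 0.68 for B cells, 0.54 for class II pathway, -0.50 for T cells, 0.72 for co-stimulation, -0.20 for fibroblasts, 0.029 for keratinocytes, -0.56 for mast cells and 0.70 for growth factors, and genes past the threshold numbered 2 lower of the other cell type lists. With the mean over all probes, medians were 0.64 for class II pathway, 1.33 for leukocytes, 0.69 for growth factors and 2.21 for neutrophils, and genes past the threshold numbered 1 lower of the pathway, dendritic, macrophage and leukocyte lists. With dim probes on either array left out, medians were 0.57 for B cells, 0.64 for class II pathway, 0.73 for co-stimulation, 0.69 for growth factors and 0.42 for neutrophils. With no filter on dim probes, medians were 1.35 for B cells, 0.13 for Langerhans identity, 0.27 for class II pathway, 0.77 for co-stimulation, 0.28 for lymphatic endothelium and 2.26 for members, and genes past the threshold numbered 3041 higher of all genes and 1.1e+03 lower of all genes. With a threshold of 1.5-fold, genes past the threshold numbered 3092 higher of all genes, 2092 lower of all genes, 3 lower of the other cell type lists and 58 higher of the pathway, dendritic, macrophage and leukocyte lists. With a threshold of 3-fold, genes past the threshold numbered 684 higher of all genes, 228 lower of all genes, 5 higher of the other cell type lists, 0 lower of the other cell type lists, 15 higher of the pathway, dendritic, macrophage and leukocyte lists and 1 lower of the pathway, dendritic, macrophage and leukocyte lists. In the main setting, the counts were 1499 and 681 of all genes, 37 and 2 of the pathway, dendritic, macrophage and leukocyte lists, and 9 and 1 of the other cell type lists, and no called value of a named gene changed sign. No paired analysis was possible because each genotype has 1 array. For the same reason the slide could not enter as a block, and this alternative was not run.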
